A study of Homo sapiens with 6 samples.

Results

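The S100 calcium-binding genes at 1q21 are 10 genes of chromosome 1, S100A1, S100A2, S100A3, S100A4, S100A6, S100A10, S100A11, S100A13, S100A14 and S100A16, out of 14543 genes tested and 59715 gene IDs counted. They were taken as the counted rows that carry these symbols, and the list was selected with their difference between the genotypes known. Their own differences are therefore given as a description, with no test. The RNA came from HCT116 cells, a human colorectal cancer line, with 3 sequenced libraries labelled MLL4WT and 3 labelled MLL4KO, in which the histone H3 lysine 4 methyltransferase MLL4 (gene KMT2D) was knocked out. The cells were a gift line, and neither the number of clones nor the position of the deletion is given in the sources used here. No label states that libraries of one genotype are from different cultures. The p-values thus weigh a difference against the spread between these libraries, which may be technical.

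S100 proteins are small EF-hand proteins that mostly work as dimers. Most change shape on binding calcium and then grip a partner protein, such as an annexin or a myosin heavy chain, while some are also released and bind cell surface receptors. Most of the human genes lie together on the long arm of chromosome 1 beside the epidermal differentiation genes, and several are widely studied in epithelial tumours.

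Library totals ran from 6829400 counts in MLL4WT replicate 1 to 19736751 in MLL4KO replicate 1, where 3 counts correspond to 0.439 and 0.152 CPM, the count scaled to library depth. CPM values of genes are also TMM-scaled, which adjusts for differences in library composition. Over all genes, 2885 (19.8%) rose and 3136 (21.6%) fell in MLL4KO at a Benjamini-Hochberg adjusted p under 0.05 in the edgeR quasi-likelihood test, or 3706 and 2394 with libraries scaled by total counts alone, and the library values of the groups did not overlap for 52.5% of genes. KMT2D itself read 239.7, 230.5 and 234 CPM with MLL4 intact and 229.5, 243 and 225 CPM in MLL4KO (log2 change -0.01 ± 0.05 SE, edgeR adjusted p = 0.832), so its RNA level does not check the labels. Of 8 colorectal epithelial markers, EPCAM, KRT8 and KRT18 fell, CDH1 and CDX2 did not pass the test, KRT20 and VIL1 were too low to test, and CDX1 was at 0 in every library. The summed level of that list was 1385 to 1430 CPM in MLL4WT and 895 to 919 CPM in MLL4KO, and its part in the S100 differences was not tested. Of 4 tested fibroblast markers, COL3A1 fell 6.90-fold and COL1A1 and PDGFRB rose 1.22-fold and 1.57-fold (edgeR adjusted p = 1.57e-05, 0.0106 and 0.0229). That list summed to between 30.2 and 35.7 CPM over all libraries, and melanocyte and leukocyte markers to between 1.93 and 6.20 CPM. Endothelial markers, with 0 of 2 tested genes past the threshold, summed to 1.90 to 2.20 CPM in MLL4WT and 3.08 to 3.94 CPM in MLL4KO.

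Of the 10 S100 genes, 8 were lower in MLL4KO past the threshold used for all genes (against 21.6% of all tested genes lower) and 0 were higher (against 19.8%). For 8 of 10 the library values of the genotypes did not overlap (against 52.5% of all tested genes). The median log2 difference of the 10 was -1.48, beside -0.0044 for all tested genes. Since the genes were selected on this contrast, nothing is read from these shares. All 10 passed the filter on low counts, but S100A3 and S100A14 were under its level of 0.648 CPM in every MLL4KO library, so they passed through MLL4WT alone and had to differ. The differences ran from none that could be seen (S100A1, S100A13) to S100A14 at 36.5-fold lower. In bulk RNA, fewer cells with a transcript and less transcript per cell cannot be told apart.

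**Figure D1:**
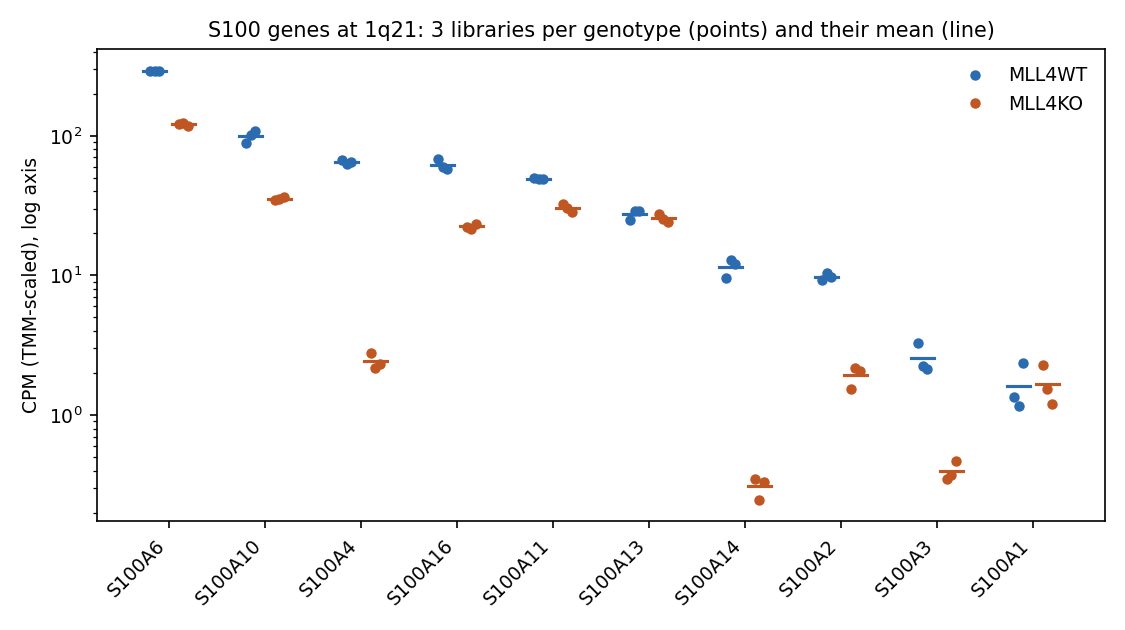
Level of each S100 gene in CPM (TMM-scaled, log axis) in the 3 MLL4WT libraries (blue points) and the 3 MLL4KO libraries (orange points), with the mean of each genotype as a line. S100A4 and S100A14 stand farthest apart between the genotypes, and the points of S100A13 and S100A1 overlap.

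Stretches before RefSeq starts of 4 of the genes are printed here because they differ in CpG content. The genes are S100A4 and S100A14, the lowest in MLL4KO relative to MLL4WT, and S100A11 and S100A13, lowered little or not visibly. They were picked as a contrast and leave out S100A1, whose difference was the smallest and whose window is CpG-poor. Each is the part of the 250 bases before the RefSeq start (GRCh38.p14, minus strand, 5′ to 3′) that lies outside annotated exons, with every CpG in capitals. S100A4 is at chr1:153545886-153546056, S100A14 at chr1:153616356-153616575, S100A11 at chr1:152037036-152037254 and S100A13 at chr1:153634398-153634611 (the start listed first of its 3). The stretches of S100A4, S100A14 and S100A11 lie inside the spans that the GENCODE 29 annotation gives these genes. That of S100A13 lies outside its GENCODE span, which ends at 153631360, and inside that of the neighbouring gene CHTOP (chr1:153633982-153646306).
S100A4: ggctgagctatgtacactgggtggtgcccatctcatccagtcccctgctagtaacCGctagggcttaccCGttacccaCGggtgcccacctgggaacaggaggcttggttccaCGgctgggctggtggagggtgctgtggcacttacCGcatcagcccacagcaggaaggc
S100A14: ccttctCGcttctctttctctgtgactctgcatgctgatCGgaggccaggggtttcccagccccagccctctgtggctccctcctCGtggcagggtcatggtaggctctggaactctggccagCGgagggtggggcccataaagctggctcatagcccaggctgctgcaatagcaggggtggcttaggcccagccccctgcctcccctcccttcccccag
S100A11: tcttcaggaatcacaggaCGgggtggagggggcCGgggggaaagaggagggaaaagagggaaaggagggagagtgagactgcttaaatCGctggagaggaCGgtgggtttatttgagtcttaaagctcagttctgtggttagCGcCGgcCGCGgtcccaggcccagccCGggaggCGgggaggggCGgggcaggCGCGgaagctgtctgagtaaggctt
S100A13: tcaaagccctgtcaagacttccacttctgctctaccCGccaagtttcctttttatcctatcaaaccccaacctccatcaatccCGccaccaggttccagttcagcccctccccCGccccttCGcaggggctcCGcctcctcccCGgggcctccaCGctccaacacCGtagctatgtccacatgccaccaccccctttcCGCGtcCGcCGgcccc
These stretches hold 5 CpG in the 171 bases of S100A4 and 4 in the 220 bases of S100A14, against 13 in the 219 bases of S100A11 and 12 in the 214 bases of S100A13.

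Over the whole window of 250 bases the 10 genes differed widely in CpG count. S100A6 and S100A10 held 24 each and S100A11 and S100A13 held 15 each, while S100A4 held 7, S100A1 6, S100A2, S100A3 and S100A14 4 each and S100A16 1. Other annotated starts gave 3 for S100A2, 6 for S100A16 and 10 and 8 for S100A13. Of 35116 RefSeq promoters 42.9% held 15 or more CpG and 43.7% held 7 or fewer, with a median of 11. The 4 genes with 15 or more CpG had log2 differences from -0.12 to -1.51. Among them, S100A6 and S100A10 have windows with no base outside annotated exons. S100A13 reaches 15 only at the start listed first, whose window lies outside its GENCODE span. Of the 6 with 7 or fewer, S100A2, S100A3, S100A4 and S100A14 lay between -2.37 and -5.19, S100A16 was at -1.45 and S100A1 at 0.02. These are 10 genes chosen by their differences, so the layout is a description. The TATA motif TATAAA, searched on both strands, was in the window of S100A4 and of 1 start of S100A13 (10.7% of all promoters). TGANTCA, the core that AP-1 factors bind, was in that of S100A3 and of 1 start of S100A2 (6.57% of all promoters).

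**Figure D2:**
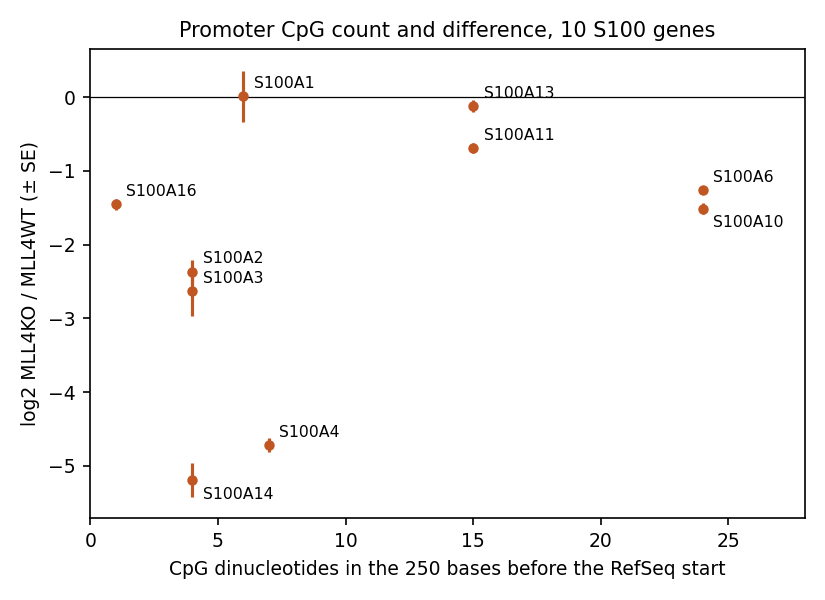
Log2 difference between MLL4KO and MLL4WT (± SE) against the number of CpG dinucleotides in the 250 bases before the first listed RefSeq start, 1 point per S100 gene. The 4 genes at 15 or 24 CpG lie above -1.6, and the 4 lowest points all have 7 CpG or fewer. S100A16 at 1 CpG and S100A1 at 6 CpG also lie above -1.6. The genes were chosen by their differences, so the layout is a description. S100A13, drawn at 15, holds 10 and 8 at its other starts.

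S100A4 binds the heavy chain of nonmuscle myosin IIA and is known for its link to cell migration and metastasis. Its MLL4WT libraries read 66.7, 62.6 and 65.1 CPM and its MLL4KO libraries 2.79, 2.16 and 2.33 CPM. The lowest MLL4WT library thus stood far above the highest MLL4KO library. The means were 64.8 ± 2.10 and 2.42 ± 0.325 CPM (SD, n = 3), a 26.3-fold lower level (log2 -4.72 ± 0.10 SE) resting on 2494 counts in MLL4WT and 126 in MLL4KO.

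S100A14, an epithelial S100 that can be released and bind the receptor AGER, had the largest difference of the 10. It had 64, 187 and 210 counts in the MLL4WT libraries and 7, 4 and 5 in the MLL4KO libraries. In CPM these are 9.51, 12.8 and 12.1 against 0.348, 0.247 and 0.332, a mean of 11.5 ± 1.74 against 0.309 ± 0.0547 (SD, n = 3). That is 36.5-fold lower (log2 -5.19 ± 0.23 SE), and every MLL4KO library was near the level that a few counts give. S100A16, its neighbour on the chromosome, which can pair with it, was lowered far less. It read 67.8, 59.9 and 57.9 CPM in MLL4WT and 22.3, 21.6 and 23.4 CPM in MLL4KO, 2.73-fold lower (log2 -1.45 ± 0.07 SE) with no overlap.

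S100A2, a mostly nuclear S100, read 9.21, 10.4 and 9.76 CPM in MLL4WT and 1.54, 2.16 and 2.06 CPM in MLL4KO. The groups did not overlap, and the means were 9.78 ± 0.572 and 1.92 ± 0.331 CPM (SD, n = 3), 5.16-fold lower (log2 -2.37 ± 0.16 SE). S100A3, known from the hair cuticle and for binding zinc, was scarce in both genotypes. It had 22, 33 and 37 counts in the MLL4WT libraries and 7, 6 and 7 in the MLL4KO libraries. On the CPM scale this was 2.55 ± 0.624 against 0.394 ± 0.0624 (SD, n = 3), 6.20-fold lower (log2 -2.63 ± 0.34 SE), with the widest error among the 8 lowered genes. S100A3 lies inside the annotated body of S100A4 but shares no exon bases with it.

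S100A6, S100A10 and S100A11 are known to bind annexins. S100A6 (calcyclin) read 291.5, 292 and 289 CPM in MLL4WT and 121, 124 and 118 CPM in MLL4KO, 2.40-fold lower (log2 -1.26 ± 0.04 SE). Its MLL4WT libraries had a coefficient of variation of 0.652%, the smallest of the 10 genes in that genotype. S100A10, which forms a tetramer with annexin A2 and differs from its relatives in not needing calcium, read 89.0, 101 and 109 CPM in MLL4WT and 34.5, 35.1 and 36.3 CPM in MLL4KO, 2.85-fold lower (log2 -1.51 ± 0.07 SE). S100A11, a partner of annexin A1, was lowered least of the 8. Its libraries read 49.8, 48.7 and 49.3 CPM in MLL4WT and 32.5, 30.4 and 28.3 CPM in MLL4KO, 1.62-fold lower (log2 -0.69 ± 0.07 SE), still without overlap.

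S100A13, which takes part in the release of FGF1, and S100A1, best known from heart and skeletal muscle, were the 2 genes whose groups overlapped. S100A13 read 25.0, 28.7 and 28.9 CPM in MLL4WT and 27.4, 25.3 and 24.0 CPM in MLL4KO (log2 -0.12 ± 0.08 SE). S100A1 read 1.34, 1.17 and 2.35 CPM in MLL4WT and 2.29, 1.54 and 1.20 CPM in MLL4KO (log2 0.02 ± 0.35 SE), from 9, 17 and 41 counts and 46, 25 and 18 counts. At this depth a moderate difference in S100A1 was not detectable. These genes overlap on opposite strands and share 235 exon bases, 7.76% of those of S100A1 and 10.6% of those of S100A13. S100A13 also shares 536 exon bases (24.2% of its own) with the gene ENSG00000271853 on the same strand. S100A1 shares a further 320 exon bases (10.6% of its own) with ENSG00000272030 and 34 with ENSG00000271853, both on the opposite strand. Since the library kit is not stated to keep strand, reads in the shared bases cannot be told apart, and the values of both genes are uncertain.

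The column names of the deposited table carry a code with the form of a flow cell identifier, which the labels do not explain. MLL4WT replicate 3 and MLL4KO replicate 1 share 1 code, MLL4WT replicate 2 and MLL4KO replicates 2 and 3 share another, and MLL4WT replicate 1 is alone on its own. Within those 2 codes the log2 differences were -4.55 and -4.80 for S100A4, -5.11 and -5.47 for S100A14, -2.61 and -2.44 for S100A3 and -2.66 and -2.30 for S100A2. S100A10 gave -1.66 and -1.50, S100A16 -1.38 and -1.41, S100A6 -1.25 and -1.27 and S100A11 -0.60 and -0.73. All 8 genes were lower within each code. They were selected on this contrast in these same libraries, so this is a description and nothing is read from it. The first code sets 1 library against 1. S100A13 gave -0.08 and -0.22, and S100A1 -0.04 and 0.23.

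The make-up of the S100 transcript pool differed between the genotypes. The sum over the 10 genes was 613, 619.9 and 625 CPM in MLL4WT and 245, 243 and 237 CPM in MLL4KO. S100A6 supplied 47.0% ± 0.694 of that sum in MLL4WT and 50.2% ± 0.808 in MLL4KO (SD, n = 3). S100A4 went from 10.5% ± 0.398 to 1.003% ± 0.125 of it, while S100A11 went from 7.95% ± 0.144 to 12.6% ± 0.643 and S100A13 from 4.44% ± 0.322 to 10.6% ± 0.524. The shares of S100A10 overlapped between the genotypes, at 16.1% ± 1.45 and 14.6% ± 0.652, and so did those of S100A16, at 10.00% ± 0.933 and 9.29% ± 0.526. The larger shares of S100A11 and S100A13 are shares of a smaller sum, and neither gene was higher in CPM.

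Per kilobase of annotated exon, S100A6 was the most abundant in MLL4WT at 299.5 ± 1.95 CPM per kb (SD, n = 3), 4.13 times the next gene. S100A11 followed at 72.4 ± 0.795, S100A10 at 64.5 ± 6.43 and S100A4 at 63.2 ± 2.05 CPM per kb, and the library ranges of S100A10 and S100A4 overlapped. S100A16 stood at 36.4 ± 3.05, S100A13 at 12.4 ± 1.004, S100A14 at 8.98 ± 1.36, S100A2 at 6.24 ± 0.365, S100A3 at 2.67 ± 0.654 and S100A1 at 0.534 ± 0.212 CPM per kb. In MLL4KO the order was S100A6, S100A11, S100A10, S100A16, S100A13, S100A4, S100A2, S100A1, S100A3 and S100A14. S100A4 thus went from the 4th place at 63.2 CPM per kb to the 6th at 2.36, and S100A14 from the 7th at 8.98 to the last at 0.242. The places depend on the length used: over the longest coding transcript, S100A4 came second in MLL4WT at 108 CPM per kb.

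On the chromosome (GRCh38, GENCODE 29 annotation) the genes form 2 blocks within 1.65 Mb. S100A10 (chr1:151982915-151994390) and S100A11 (chr1:152032506-152047907) lie at one end, followed by a gap of 1.49 Mb. The other 8 genes sit within 97.4 kb, in the order S100A6 (chr1:153534599-153536244), S100A4 (chr1:153543613-153550136), S100A3 (chr1:153547329-153549372), S100A2 (chr1:153561108-153567890), S100A16 (chr1:153606886-153613145), S100A14 (chr1:153614255-153616986), S100A13 (chr1:153618787-153631360) and S100A1 (chr1:153627926-153632039). S100A1 is on the plus strand and the other 9 are on the minus strand. Large and small differences stood side by side: S100A14 (-5.19) is next to S100A13 (-0.12), and S100A4 (-4.72) lies among S100A6 (-1.26), S100A3 (-2.63) and S100A2 (-2.37) on the log2 scale.

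S100A5, a calcium, zinc and copper binder known from olfactory neurons, sits between S100A6 and S100A4 and is not in the list of 10. It had 23, 36 and 45 counts in the MLL4WT libraries and 3, 0 and 2 in the MLL4KO libraries (log2 -4.71 ± 0.49 SE). Like S100A3 and S100A14, it passed the filter through MLL4WT alone and had to differ, so no test is given. In CPM this was 2.82 ± 0.517 against 0.0941 ± 0.0819 (SD, n = 3), and no MLL4KO library passed 3 counts. Of 11 S100 genes outside the list, 6 had a count and 2 were tested, S100A5 and S100A9. S100A7, S100A7A, S100A7L2, S100B and S100G had 0 counts in every library, S100P had 8 counts in MLL4WT and 4 in MLL4KO, S100A12 had 1 and 3, and S100Z had 1 count in all. The fused S100 genes of skin, such as FLG and TCHH, were near 0, with 4 of 7 counted and 0 tested. TCHH led them with 6 counts in MLL4WT and 12 in MLL4KO.

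S100A8 and S100A9, which together form calprotectin of neutrophils and monocytes, followed the code in the column names and not the genotype. S100A9 had 0, 44 and 0 counts in the MLL4WT libraries and 0, 40 and 44 in the MLL4KO libraries, and S100A8 had 0, 7 and 0 and 0, 14 and 19. The 3 libraries with counts are the 3 that share a code. S100A9 did not pass the test between genotypes (log2 0.63 ± 1.78 SE, edgeR adjusted p = 0.81), and the value turned to -0.16 with the code as a factor and to -0.067 without MLL4WT replicate 3. A pattern sought after these values were seen, at least 5 counts in each of those 3 libraries and 0 in the other 3, held for 13 genes, and the reverse pattern for 0. Among them were the myeloid genes FCGR3B (19, 13 and 15 counts), CXCR2 (9, 11 and 6), FPR1, MNDA and AQP9, and also the heart myosins MYH6 and MYH7. The sum of the 6 leukocyte markers listed for the check of cell type, most of it from CD68, did not follow the code, at 1.93, 4.94 and 6.20 CPM in MLL4WT and 4.23, 3.27 and 3.72 CPM in MLL4KO. Of these markers, PTPRC (CD45) and LYZ were each highest in CPM in the 3 libraries that share the code. CD14, CD79A, CD3E and CD68 were not. CD14 had 0, 2 and 2 counts in MLL4WT and 7, 8 and 0 in MLL4KO. CD79A had 1, 4 and 3 counts in MLL4WT and 8, 4 and 2 in MLL4KO. CD3E had 1 count in all, in MLL4WT replicate 3, where CD68 was highest in CPM. PTPRC had 1, 9 and 2 counts in MLL4WT and 0, 6 and 11 in MLL4KO. LYZ had 0, 2 and 1 counts in MLL4WT and 2, 7 and 4 in MLL4KO. Where these counts came from was not tested.

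**Figure D3:**
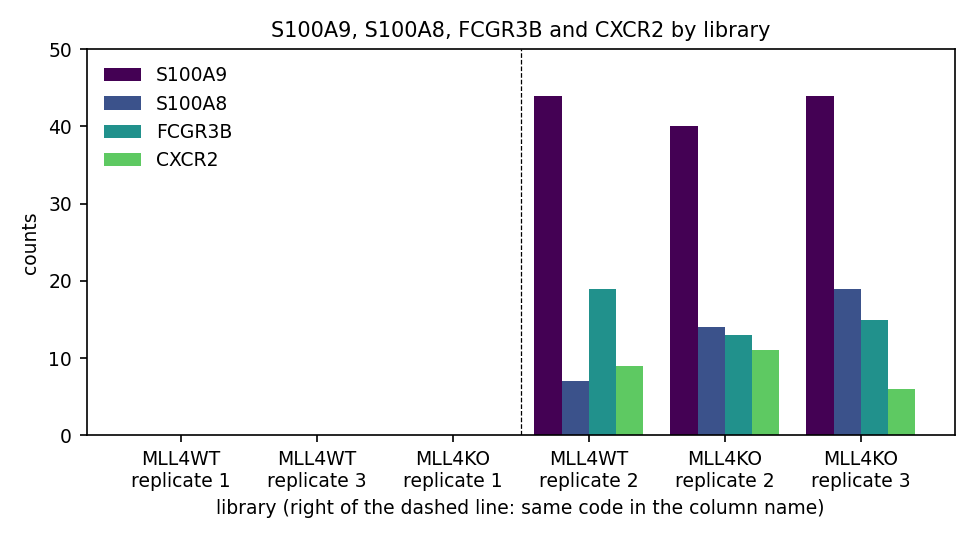
Counts of S100A9, S100A8, FCGR3B and CXCR2 in each library, with the 3 libraries that share a code in the column name to the right of the dashed line. All 4 genes are at 0 in the 3 libraries on the left, 2 of MLL4WT and 1 of MLL4KO.

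The genes around the S100 stretch were read from the same fit. Of 64 coding genes annotated within the stretch 12 were tested, and all of them are S100 genes. Of the 47 coding genes there that are not S100 genes, with the fused genes counted among them, 2 are not in the count table. Of the others 8 had a count, and the largest total over all libraries was 18. ENSG00000271853, which overlaps S100A13, was the only other tested gene in the stretch. It had 7, 2 and 5 counts in MLL4WT and 16, 10 and 15 in MLL4KO (log2 1.06 ± 0.57 SE, edgeR adjusted p = 0.16), and passed the threshold without MLL4WT replicate 1 (log2 1.85, edgeR adjusted p = 0.01).

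Of these 41 neighbours, ENSG00000271853 and the 20 nearest tested genes on each side, 4 rose (against 19.8% of all tested genes) and 15 fell (against 21.6%), and 0 fell as much as 2-fold. The log2 changes of the 40 flanking genes ran from -0.75 to 0.97 with a median of -0.075. The median of the 10 S100 genes was -1.48, but they were selected on this contrast, so nothing is read from the gap. On the side of S100A10, 4 of 20 rose and 5 fell, and on the side of S100A1, 0 rose and 10 fell. The count of 4 that rose came to 2 with the DESeq2 Wald test or when any one of MLL4WT replicate 2 and MLL4KO replicates 2 and 3 was left out, and to 7 with total counts or when MLL4WT replicate 1 was left out, ENSG00000271853 being 1 of the 7 in the last case. TDRKH, which acts in piRNA maturation, rose 1.95-fold from 3.27, 5.49 and 4.54 CPM to 8.31, 10.2 and 8.51 CPM (edgeR adjusted p = 0.000658). RFX5, a regulator of MHC class II genes, rose 1.28-fold (edgeR adjusted p = 0.000813). CGN, a tight junction protein, rose 1.32-fold (edgeR adjusted p = 0.0307) but did not pass in 5 of 13 alternatives, with an adjusted p of up to 0.116.

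Among the genes that fell, JTB was 1.47-fold lower (edgeR adjusted p = 2.5e-05), PIP5K1A, a lipid kinase that makes the phosphoinositide PIP2, 1.34-fold lower (edgeR adjusted p = 2.58e-05) and INTS3, an Integrator subunit, 1.30-fold lower (edgeR adjusted p = 6.97e-05). The next 3 genes were chosen after their values were seen. THEM4, which lies 73.1 kb from S100A10 and is its nearest tested neighbour, fell 1.19-fold (edgeR adjusted p = 0.00868), with an adjusted p of 0.0557 in the DESeq2 Wald test. CHTOP, 1.94 kb from S100A1, fell 1.17-fold (edgeR adjusted p = 0.0187) and did not pass in 6 of 13 alternatives, with an adjusted p of up to 0.1. IL6R, the interleukin-6 receptor, had the largest fall of the flanks, from 11.2 ± 2.58 to 6.74 ± 0.259 CPM (SD, n = 3, edgeR adjusted p = 0.00195).

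**Figure D4:**
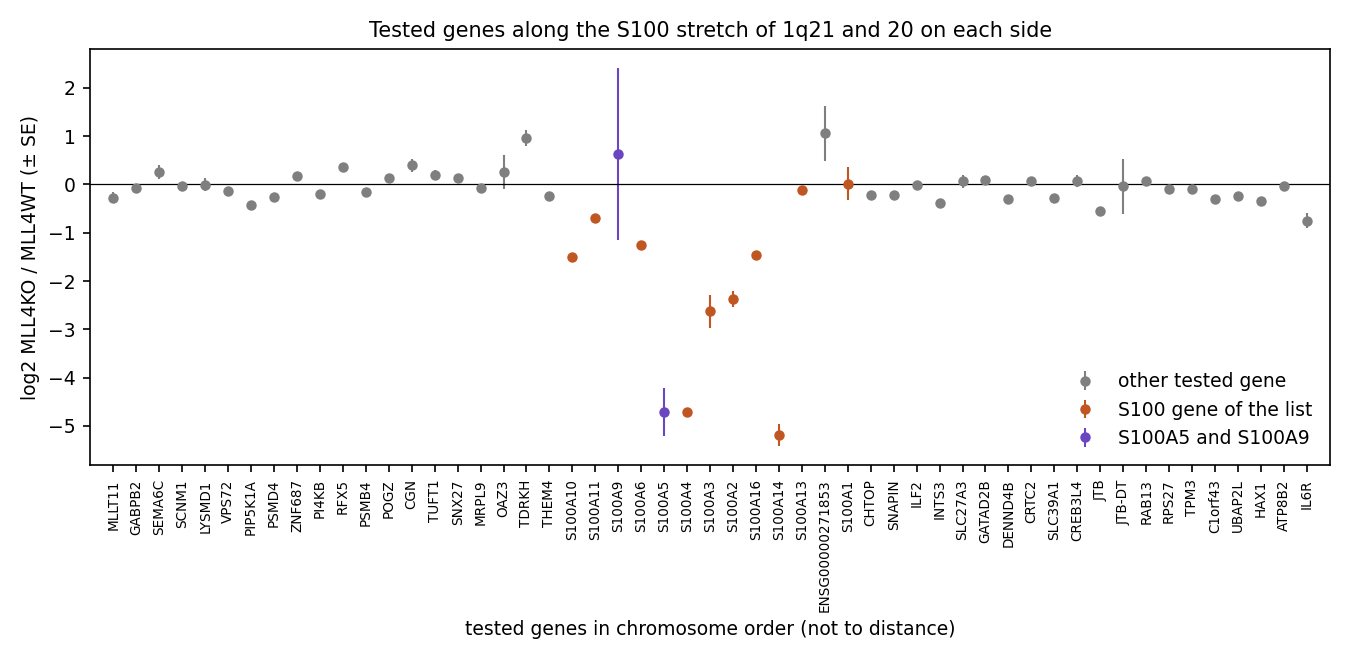
Log2 change between MLL4KO and MLL4WT (± SE) of every tested gene from 20 before S100A10 to 20 after S100A1, in chromosome order and not to distance, with the 10 S100 genes in orange, S100A5 and S100A9 in purple and other genes in grey. The flanking genes stay between -0.75 and 0.97, and the lowest points are S100A14, S100A4 and S100A5.

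The genes of known S100-binding proteins were also read. Of 29 listed, 28 had a count and 23 were tested, of which 3 rose (against 19.8% of all tested genes), 11 were lower past the threshold (against 21.6%) and 9 did not pass. The 11 include RYR2, which passed the filter through MLL4WT alone. Their median log2 change was -0.14, beside -0.0044 for all tested genes. For 16 of the 23 the groups did not overlap (against 52.5% of all tested genes). The partner lists were chosen with earlier results of these data known, so nothing is read from these shares or from those of the smaller lists below.

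Of the 4 annexins and the scaffold AHNAK, 3 genes fell (against 21.6% of all tested genes). The annexins known to pair with S100A10 and S100A11 were among them. ANXA1, the partner of S100A11, read 357, 437 and 447 CPM in MLL4WT and 100, 101 and 102 CPM in MLL4KO, 4.12-fold lower (log2 -2.04 ± 0.08 SE, edgeR adjusted p = 2.32e-08). ANXA2, the partner of S100A10, went from 638.5, 739 and 741 CPM to 436, 421 and 424 CPM, 1.66-fold lower (log2 -0.73 ± 0.06 SE, edgeR adjusted p = 1.7e-06). In neither did the groups overlap. For every 100 counts of ANXA2 there were 14.1 ± 0.512 counts of S100A10 in MLL4WT and 8.27 ± 0.327 in MLL4KO (SD, n = 3). The S100A11 count per 100 of ANXA1 went the other way, from 12.04 ± 1.65 to 30.2 ± 2.31, since ANXA1 was lowered more than S100A11. AHNAK, the large scaffold that the S100A10 and annexin A2 complex binds, read 208, 241 and 275 CPM in MLL4WT and 204, 215.5 and 202 CPM in MLL4KO (log2 -0.23 ± 0.09 SE, edgeR adjusted p = 0.0603), and it passed the threshold in 5 of 13 alternatives. Of the annexins that S100A6 can bind, both named after their values were seen, ANXA11 fell slightly (log2 -0.19 ± 0.04 SE, edgeR adjusted p = 0.00447) and ANXA6 gave -0.12 ± 0.05 SE (edgeR adjusted p = 0.0569), past the threshold without MLL4WT replicate 1.

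Of the 3 cytoskeletal partners 2 fell (against 21.6% of all tested genes), both of them binders of S100A4. MYH9, the nonmuscle myosin IIA heavy chain, read 908, 1111 and 1048 CPM in MLL4WT and 556.5, 569 and 534 CPM in MLL4KO, 1.85-fold lower (log2 -0.89 ± 0.07 SE, edgeR adjusted p = 1.91e-06). PPFIBP1 (liprin beta-1) read 137, 138 and 136 CPM against 56.0, 60.3 and 63.3 CPM, 2.29-fold lower (log2 -1.20 ± 0.05 SE, edgeR adjusted p = 1.59e-08). Neither gene overlapped between the genotypes, and both moved less than S100A4. The S100A4 count per 100 counts of MYH9 went from 6.39 ± 0.872 to 0.438 ± 0.0608 (SD, n = 3).

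CACYBP, the calcyclin-binding protein that links S100A6 to ubiquitin ligases, overlapped between the genotypes. It read 226, 291 and 296 CPM in MLL4WT and 272, 271 and 277 CPM in MLL4KO (log2 0.00 ± 0.09 SE, edgeR adjusted p = 0.984). Without MLL4WT replicate 1, its lowest library, the value was -0.10 (edgeR adjusted p = 0.00486). The S100A6 count per 100 counts of CACYBP went from 108.9 ± 17.3 to 44.3 ± 1.53 (SD, n = 3). SUGT1, a chaperone adaptor that S100A6 also binds, rose 1.21-fold (edgeR adjusted p = 0.00901). MDM2, a ubiquitin ligase, rose 1.17-fold (edgeR adjusted p = 0.00449).

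Of 4 secretion and protease partners 2 were tested, and both fell (against 21.6% of all tested genes). SYT1, which joins S100A13 in the release of FGF1, fell 1.76-fold (edgeR adjusted p = 0.00115). PLAT, the plasminogen activator whose cleavage of plasminogen S100A10 promotes, fell 1.52-fold (edgeR adjusted p = 0.00127). FGF1 had 19 counts in MLL4WT and 12 in MLL4KO and was not tested. Of the receptors, AGER read 6.09, 4.66 and 6.49 CPM in MLL4WT and 6.02, 4.38 and 4.25 CPM in MLL4KO (log2 -0.22 ± 0.19 SE, edgeR adjusted p = 0.38), with overlap. The ligand gene S100A14 was thus far lower in libraries where no change in AGER was detected. Of 6 channel and calcium pump partners 4 were tested. Among them, named after their values were seen, KCNK3, which S100A10 helps to reach the membrane, fell 2.44-fold (edgeR adjusted p = 0.004). RYR2, a calcium release channel that S100A1 binds in muscle, had 37 counts in MLL4WT and 8 in MLL4KO (log2 -2.57 ± 0.54 SE). It too passed the filter through MLL4WT alone and had to differ, so no test is given. The other tested genes of this list, also named after their values were seen, differed less. RYR1 gave log2 -0.06 ± 0.19 SE (edgeR adjusted p = 0.808) and ATP2A2 -0.12 ± 0.04 SE (edgeR adjusted p = 0.0331).

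**Figure D5:**
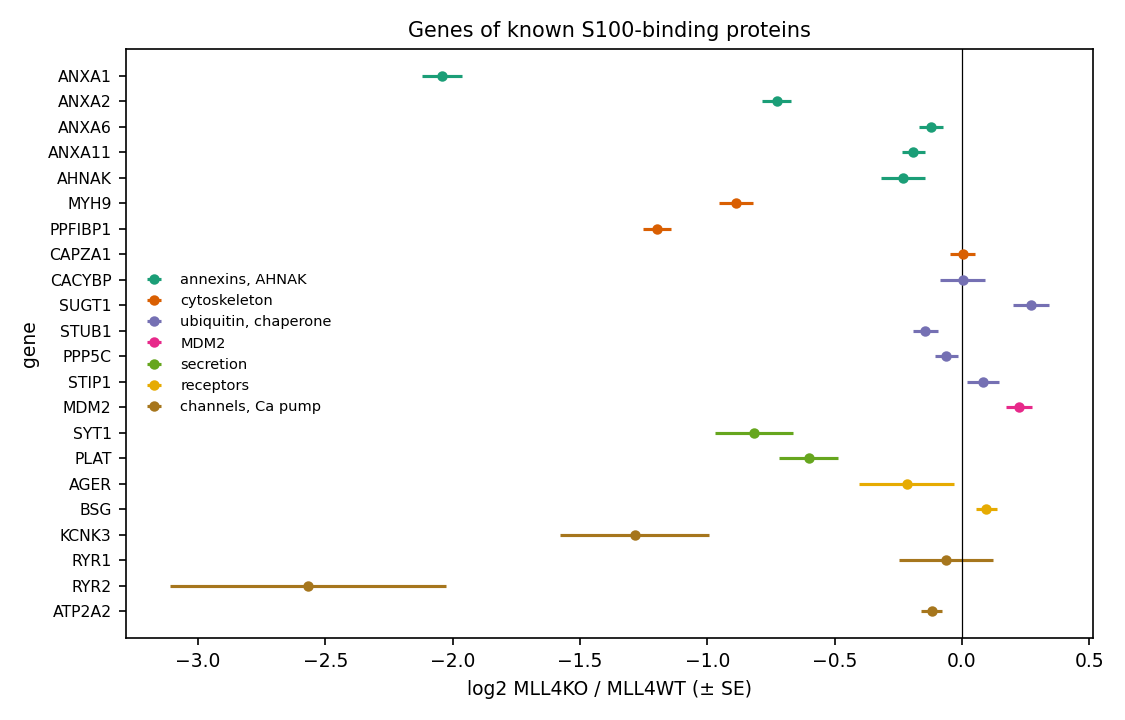
Log2 change between MLL4KO and MLL4WT (± SE) of tested genes of S100-binding proteins, coloured by their role. ANXA1, PPFIBP1, MYH9 and ANXA2 lie to the left of 0 with short error bars, CACYBP lies at 0, and RYR2 is lowest with the widest error.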

How the data were processed

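The authors deposited estimated counts per gene as whole numbers, not normalised, for 59715 Ensembl gene IDs in 6 HCT116 libraries, 3 MLL4WT and 3 MLL4KO, grouped by the genotype label. Poly(A) RNA was enriched and made into libraries with a kit not stated to keep strand, per the labels' protocols. The submitters' processing notes list Salmon 1.8.0, DESeq2 1.44.0 and hg38 but say nothing of what each did. Estimated counts split reads between overlapping or similar genes in a way that the table does not show.

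Genes were filtered with filterByExpr, scaled by TMM and tested with the quasi-likelihood test of edgeR 4.0.16 in R 4.3.3 (robust dispersion, no covariate, 4 residual degrees of freedom, Benjamini-Hochberg over 14543 genes, threshold 0.05). The standard error of a log2 change came from the F statistic. Coordinates and exon lengths came from GENCODE 29 (GRCh38) and promoters from RefSeq.

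The 10 S100 genes and all gene lists were chosen with earlier results of these data known. Named besides them are every other S100 gene with counts, KMT2D, tested genes inside the stretch, the 3 flanking genes with the smallest adjusted p in each direction, 6 set partners and up to 3 further called partners in each direction. Others are said to be chosen after their values were seen. A few genes enter the counts but are not reported here by name. Alternatives were DESeq2 1.42.0 with the Wald test, RLE size factors, total counts, no filter, at least 1 CPM in 3 libraries, a replicate block, the code as a factor and leaving out each library.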

Additional observations from a re-analysis of the deposited data

How the results depend on the processing

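Over all genes, 2316 to 3986 were lower and 2062 to 3706 higher under the 13 alternatives. The 10 S100 genes were selected on this contrast in the same libraries, so their refits are a description. All 10 S100 genes were refitted under the 13 alternatives, and the count of 8 lower and 0 higher held in each. Their log2 differences stayed within -4.84 to -4.63 for S100A4, -5.29 to -5.05 for S100A14, -2.75 to -2.46 for S100A3, -2.46 to -2.21 for S100A2, -1.57 to -1.43 for S100A10, -1.49 to -1.39 for S100A16, -1.27 to -1.20 for S100A6 and -0.74 to -0.63 for S100A11, while S100A13 ranged from -0.17 to -0.06 and S100A1 from -0.28 to 0.47. S100A6 was 4.13 times the next gene per kilobase of exon, 3.15 times by coding length and 4.002 times by the longest coding transcript. Of the 41 neighbours, the 4 that rose numbered 2 with the DESeq2 Wald test, 7 with the code as a factor (ENSG00000271853 among them), 7 with total counts and 2 to 7 when 1 library was left out. CACYBP turned to -0.10 with the code as a factor, and its leave-one-out values ran from -0.10 to 0.0777. S100A9 turned to -0.16 with the code as a factor and ran from -0.0672 to 7.73 when 1 library was left out, the highest without MLL4WT replicate 2, whose loss leaves MLL4WT at 0 counts. The cause of the other changes was not tested. Same-numbered libraries did not deviate together (correlations 0.0245, 0.0341 and -0.0146), so no pairing by number was visible. With a replicate block, 2689 genes rose and 3024 fell, 8 of the 10 S100 genes were lower, and 3 partners rose and 10 fell. The 3 counts taken as a floor are 0.439 CPM in MLL4WT replicate 1 and 0.152 to 0.203 CPM in the MLL4KO libraries, so S100A14 and S100A3, with 4 to 7 counts in each MLL4KO library, are only coarsely estimated.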
